A study of Mus musculus with 8 samples.

Results

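The epidermal growth factor (EGF) receptor family and its feedback inhibitor Errfi1 were followed in mouse mammary gland over the day after 17β-estradiol (E2). The set holds 10 genes, chosen by name and role with earlier results of these data known. They are the receptors Egfr, Erbb2, Erbb3 and Erbb4, the ligands Hbegf, Tgfa, Ereg, Btc and Nrg1, and Errfi1. All 10 were found, with 22 of the 45101 probe sets on the arrays carrying one of these symbols and no other. Within the table of 18193 genes, the brightest probe set on average stood for each gene, and 5 of the 10 (Errfi1, Egfr, Erbb2, Erbb3 and Tgfa) passed the level filter of 7.72 on the log2 scale and were tested among 10916 genes. The other 5 (Erbb4, Hbegf, Ereg, Btc and Nrg1) lay below it and are given as values.

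Inguinal mammary tissue came from gonadectomized virgin mice aged 12 to 13 weeks, whose strain and genotype the labels do not give. Every animal, controls included, had lost its gonads. Vehicle was represented by 2 arrays, both titled 24 h, and E2 by 1 array at each of 6 times, 1, 3, 6, 12, 18 and finally 24 h after a subcutaneous injection. The labels write the dose with conflicting units, so none is printed, and they speak of tissue from all mice of a group without saying whether it was pooled on an array. Times come from the titles, whereas all descriptions read 24 h. No vehicle array stood beside the times from 1 to 18 h, so E2, injection and time of day cannot be told apart there.

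The receptors of this family are membrane tyrosine kinases that pair when a ligand binds, and they feed the Ras to ERK and the PI3 kinase to Akt routes. Egfr binds Tgfa, Hbegf, Btc and Ereg, Erbb3 and Erbb4 bind neuregulins such as Nrg1, Erbb2 has no known ligand of its own and acts as the favoured partner, and Erbb3 has little kinase activity. Errfi1 is a cytoplasmic protein made soon after receptor activation that binds the kinase domain and shuts it off. In the mammary gland, the ligand amphiregulin and Egfr in the stroma are known to take part in relaying estrogen signals. Erbb3 and Erbb4 take part in luminal and secretory development.

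The labelled tissue was checked against its markers. The luminal keratins Krt8 and Krt18 lay between 9.61 and 11.52 and between 9.99 and 11.36 in log2 intensity, and the fat cell hormone Adipoq between 13.78 and 13.96, while the basal keratin Krt14 and the milk protein Csn2 lay below the level filter. Pgr, a target of the estrogen receptor, lay 2.43 above the vehicle mean at 3 h on the log2 scale. Skeletal muscle markers, of which 16 of 18 were tested, averaged 0.38 higher in vehicle 1 than in vehicle 2 and lay 0.20 to 1.24 above the vehicle mean on the E2 arrays, with summed intensities of 12582 to 16616 in vehicle, 22892 to 34123 at 1 to 6 h and 17086 to 27529 at 12 to 24 h. Luminal markers, of which 16 of 17 were tested, averaged between -0.10 and 0.04 against the vehicle mean at 1 to 6 h and between 0.24 and 0.35 at 12 to 24 h, with summed intensities of 12774 to 12842 in vehicle, 11752 to 12945 early and 15295 to 17471 late. In whole tissue, fewer cells of a type and less RNA per cell cannot be told apart.

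Errfi1, the inhibitor, showed the largest difference of the set, a peak at 1 h that had nearly gone by 6 h. Its representative probe set 1419816_s_at read 9.98 and 9.95 in log2 intensity on the vehicle arrays. After E2 it read 11.44, 10.92 and 10.22 on the early arrays (1, 3 and 6 h) and 10.16, 10.003 and 10.07 on the late ones (12, 18 and 24 h). All 6 E2 arrays were above both vehicle arrays, by a wide margin at 1 and 3 h and by hundredths at 18 h.

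The other Errfi1 probe set, 1416129_at, read 9.56 and 9.71 on the vehicle arrays and 11.26, 10.68, 10.04, 9.83, 9.53 and 9.69 at the 6 times in order. It repeated the order of the first 4 times, while its 18 h value lay below both vehicle arrays and its 24 h value between them. Across the 8 arrays both probe sets correlated with r = 0.989, a description of hybridisations that share their RNA.

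**Figure D1:**
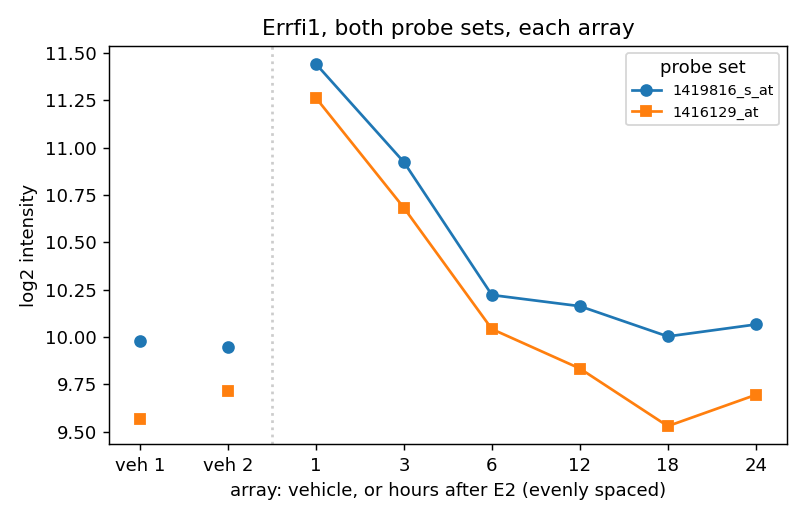
Log2 intensity of Errfi1 on each of the 8 arrays, with the vehicle arrays at the left and the E2 arrays by hours after injection, evenly spaced; each point is 1 array and each colour 1 probe set. Both probe sets are highest at 1 h (11.44 and 11.26) and second highest at 3 h (10.92 and 10.68).

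At 1 h Errfi1 was 2.78-fold above the vehicle mean by the representative probe set and 3.08-fold by the other. Against vehicle 1 and vehicle 2 taken singly, the representative lay 1.46 and 1.49 higher on the log2 scale. It was the gene with the second largest difference from the vehicle mean among the 10916 tested, of which 0.055% differed 2-fold or more from each vehicle array then. At the later times, where no tested member reached that line, the share was 0.192%, 0.211%, 0.055%, 0.0183% and 0.00916% in order. At 3 h it was 1.94-fold above by the representative, under the 2-fold line, and 2.06-fold by the other probe set, which lay 1.12 above vehicle 1 but 0.97 above vehicle 2. At 1.5-fold Errfi1 was among the 0.293% of genes that were higher at 1 h and the 0.568% at 3 h. With a single array per time, no replicate backs these folds, and Errfi1 was chosen with earlier results of these data known.

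When limma was given 7 group means, so that each lone array is assumed to vary as the vehicle pair does and the error rests on 1 residual degree of freedom with no spread from the E2 arrays, Errfi1 had an adjusted p of 0.0175 at 1 h (1.48 ± 0.0778, SE, on the log2 scale) and 0.0133 at 3 h (0.96 ± 0.0778). From 6 to 24 h its adjusted p lay between 0.452 and 1.00. This fit called 0.0641% of genes at 1 h and 0.595% at 3 h. None of the other 4 tested members was called by it at any time.

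The 250 bases upstream of the starts that RefSeq lists for Errfi1 on build GRCm38.p6 are shown because Errfi1 is the member that stood out, together with those of Egfr, the receptor it inhibits. RefSeq promoters were found for 6 of the 10 members, 7 windows in all. All 3 printed windows lie on the plus strand and end at the base before a start. Capitals mark matches, on either strand, to TGACGTCA (the cAMP response element), TATAAA and GGGCGG (the GC box).
Errfi1 upstream start, chr4:150853546-150853795: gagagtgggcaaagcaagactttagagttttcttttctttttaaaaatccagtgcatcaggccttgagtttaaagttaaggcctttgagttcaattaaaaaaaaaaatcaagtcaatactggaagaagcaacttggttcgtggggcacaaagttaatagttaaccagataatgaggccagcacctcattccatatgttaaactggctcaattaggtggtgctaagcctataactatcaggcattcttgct
Errfi1 downstream start, chr4:150854820-150855069: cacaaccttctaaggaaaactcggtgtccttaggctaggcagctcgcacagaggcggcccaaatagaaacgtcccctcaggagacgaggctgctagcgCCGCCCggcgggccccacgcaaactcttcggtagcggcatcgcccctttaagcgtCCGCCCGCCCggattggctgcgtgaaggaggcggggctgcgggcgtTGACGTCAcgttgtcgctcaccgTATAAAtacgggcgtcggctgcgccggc
Egfr, chr11:16751953-16752202: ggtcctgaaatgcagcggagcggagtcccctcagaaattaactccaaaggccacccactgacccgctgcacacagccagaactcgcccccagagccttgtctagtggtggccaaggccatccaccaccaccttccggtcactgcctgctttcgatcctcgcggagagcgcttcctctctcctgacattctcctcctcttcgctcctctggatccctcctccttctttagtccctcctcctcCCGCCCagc

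The downstream Errfi1 window holds TGACGTCA at bases -51 to -44 and TATAAA at -28 to -23, counted back from -1 next to the start, along with 3 matches to GGGCGG on the opposite strand, 2 of which overlap. TGACGTCA occurs in 1.55% of the 32851 RefSeq windows of the same length, TATAAA in 12.4% and GGGCGG in 32.7%. The upstream Errfi1 window, with 38% G and C against 64.8% in the downstream one, holds none of these, and the Egfr window holds 1 GGGCGG match on the opposite strand. Tgfa, with 2 GGGCGG matches, was the other member window with any match. Further motifs were searched on both strands: the palindromic estrogen response element (0.0639% of all windows), its single arm AGGTCA (14%), the AP-1 site TGANTCA (6.75%), the glucocorticoid response element (0.387%), the E-box CACGTG (6.02%) and the CArG box (1.47%). None of the 7 member windows has a match to these letters.

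Egfr, the receptor for Tgfa, Hbegf, Btc and Ereg, lay modestly above vehicle at 3 and 6 h on most of its probe sets. The representative, 1435888_at, read 10.11 and 10.21 on the vehicle arrays and 10.18, 10.53, 10.56, 10.28, 10.21 and 10.08 at the 6 times in order. The 3 and 6 h arrays were the highest, at 1.29-fold and 1.32-fold the vehicle mean, and the 1 h array lay between the vehicle arrays.

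A further Egfr probe set, 1424932_at, followed the same course, with 8.15 and 8.28 on the vehicle arrays and 8.16, 8.68, 8.58, 8.50, 8.22 and 8.28 at the 6 times. It stood at 1.38-fold at 3 h, 1.29-fold at 6 h and 1.22-fold at 12 h. At 3 h 5 of the 7 Egfr probe sets lay above both vehicle arrays, and 5 at 6 h, where 35% and 38.6% of all genes tested did. The count was also 5 at 12 h, and it was 4 at 18 and at 24 h, so it did not set 3 and 6 h apart. The shares count 1 probe set per gene above the level filter, whereas some Egfr probe sets lay below that filter. The sizes differed between probe sets: at 3 h 1451530_at lay 0.23 above the vehicle mean, 1460420_a_at 0.15 and 1454313_at 0.12 on the log2 scale, while 1432647_at lay at -0.10 and 1457563_at at -0.0028. The probe set 1460420_a_at stayed 0.13 to 0.16 above the vehicle mean from 12 to 24 h, a time when the representative ran from 0.12 down to -0.08. The 7 probe sets of Egfr thus did not follow a single course. Their mean lay 0.17 above vehicle at 3 h and 0.19 at 6 h, against 0.37 and 0.40 for the representative. Probe sets of 1 gene share the arrays and are no replicates.

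By its representative probe set, Erbb3, the kinase-poor receptor for neuregulins, lay above vehicle at 1 h, below it at 3 and 6 h and above it again later. That probe set, 1434606_at, read 8.96 and 9.12 on the vehicle arrays and 9.34, 8.73, 8.78, 9.15, 9.30 and 9.16 at the 6 times. The difference from the vehicle mean was 0.30 at 1 h, -0.31 at 3 h and -0.26 at 6 h, against a gap of 0.16 between the vehicle arrays. Beside these values, luminal markers averaged 0.04, -0.09 and -0.10 at 1, 3 and 6 h. The other Erbb3 probe set, 1452482_at, read 7.66 and 7.49 on vehicle and 7.67, 7.42, 7.57, 7.60, 7.82 and 7.66 after E2. Its lowest array was also that of 3 h. However, its 1 h array lay only 0.0038 above vehicle 1, and its 6, 12 and 24 h arrays lay between the vehicle arrays. From 12 to 24 h the representative lay 0.11 to 0.27 above the vehicle mean, where luminal markers averaged 0.24 to 0.35. With the luminal mean as a covariate the late difference turned from 0.17 to -0.58, and neither passed the test (adjusted p = 0.745 and 0.427 in limma). The luminal mean was 9.26 to 9.40 on vehicle and early arrays and 9.60 to 9.71 on late ones. Covariate and late window therefore largely coincide, and this fit cannot separate them.

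Erbb2, the partner receptor, had 1 probe set, which read 8.36 and 8.40 on the vehicle arrays and 8.46, 8.25, 8.33, 8.51, 8.38 and 8.65 at the 6 times. The 24 h array was the highest, at 1.21-fold the vehicle mean, and the 3 h array the lowest, at 0.917-fold. Erbb4, known for its part in lactation, read between 4.74 and 4.84 on all 8 arrays, with intensities from 26.7 to 28.7. These lie below the lower quartile of every array (67.4 to 71.8), and no course over time can be read from them.

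**Figure D2:**
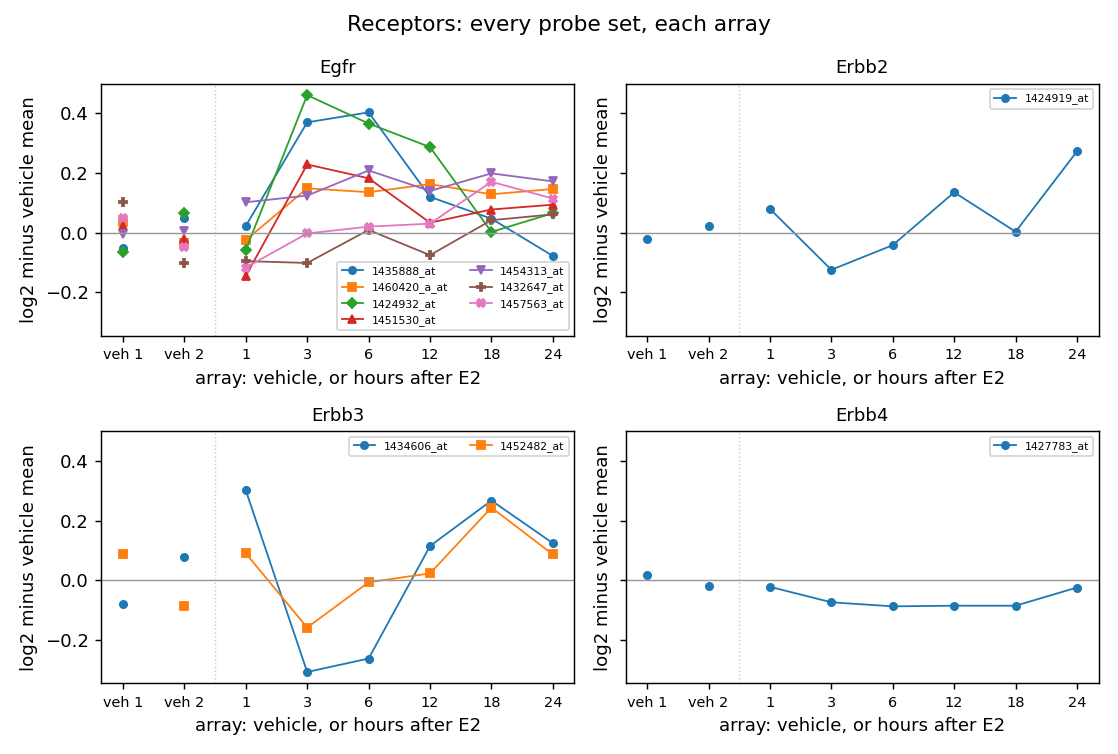
Log2 intensity minus the vehicle mean for every probe set of the 4 receptors; each point is 1 array, with the vehicle arrays at the left and hours after E2 evenly spaced to the right. Egfr probe sets 1435888_at and 1424932_at stand highest at 3 and 6 h (0.37 and 0.40, 0.46 and 0.36), Erbb3 1434606_at moves from 0.30 at 1 h to -0.31 at 3 h, and Erbb4 stays within -0.09 and 0.02.

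Among the ligands, Hbegf, a membrane-anchored growth factor released by proteases, stood highest at 3 h. Its representative, 1418350_at, read 7.19 and 7.24 on the vehicle arrays and 7.23, 7.61, 7.38, 7.07, 7.14 and 7.08 at the 6 times. The 3 and 6 h arrays were the highest and the 3 late arrays all lay below both vehicle arrays, at -0.15 to -0.08 against the vehicle mean. At 12, 18 and 24 h, 2748, 4820 and 5062 of the 10916 tested genes also lay below both vehicle arrays. At 3 h this Hbegf probe set reached 1.32-fold the vehicle mean. The other Hbegf probe set, 1418349_at, read 7.06 and 6.86 on the vehicle arrays, a gap of 0.20, and 7.10, 7.16, 7.09, 6.93, 7.12 and 7.09 after E2. It too was highest at 3 h, at 1.15-fold, but its 18 and 24 h arrays lay above vehicle, where those of the representative lay below.

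Tgfa, which binds Egfr, differed little between arrays. Its representative, 1421943_at, read 7.72 and 7.93 on the vehicle arrays, and the 6 E2 arrays read from 7.70 to 7.93. The spread of the E2 arrays was thus about that of the vehicle pair, and the other Tgfa probe sets spanned 0.19 and 0.29 on the log2 scale over the 8 arrays. Btc, betacellulin, read 7.44 and 7.37 on vehicle by 1435541_at and 7.395, 7.38, 7.33, 7.67, 7.45 and 7.32 after E2. Its 12 h array stood apart from the rest at 1.20-fold the vehicle mean, on the array where luminal markers averaged 0.35, and the part of those cells in it was not tested. The dimmer Btc probe set, 1421161_at, lay 0.02 above the vehicle mean on that array.

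Ereg, epiregulin, read 4.78 and 4.74 on the vehicle arrays and 5.07 at 1 h, with 4.66 to 4.80 at the later times. The 1 h intensity was 33.6 against 27.5 and 26.7 on vehicle, still below the lower quartile of the arrays. Nrg1, a neuregulin, had 1 probe set, which read 4.39 to 4.60 over all arrays, with intensities of 21.0 to 24.3. As with Erbb4, no course can be read from the Nrg1 values.

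**Figure D3:**
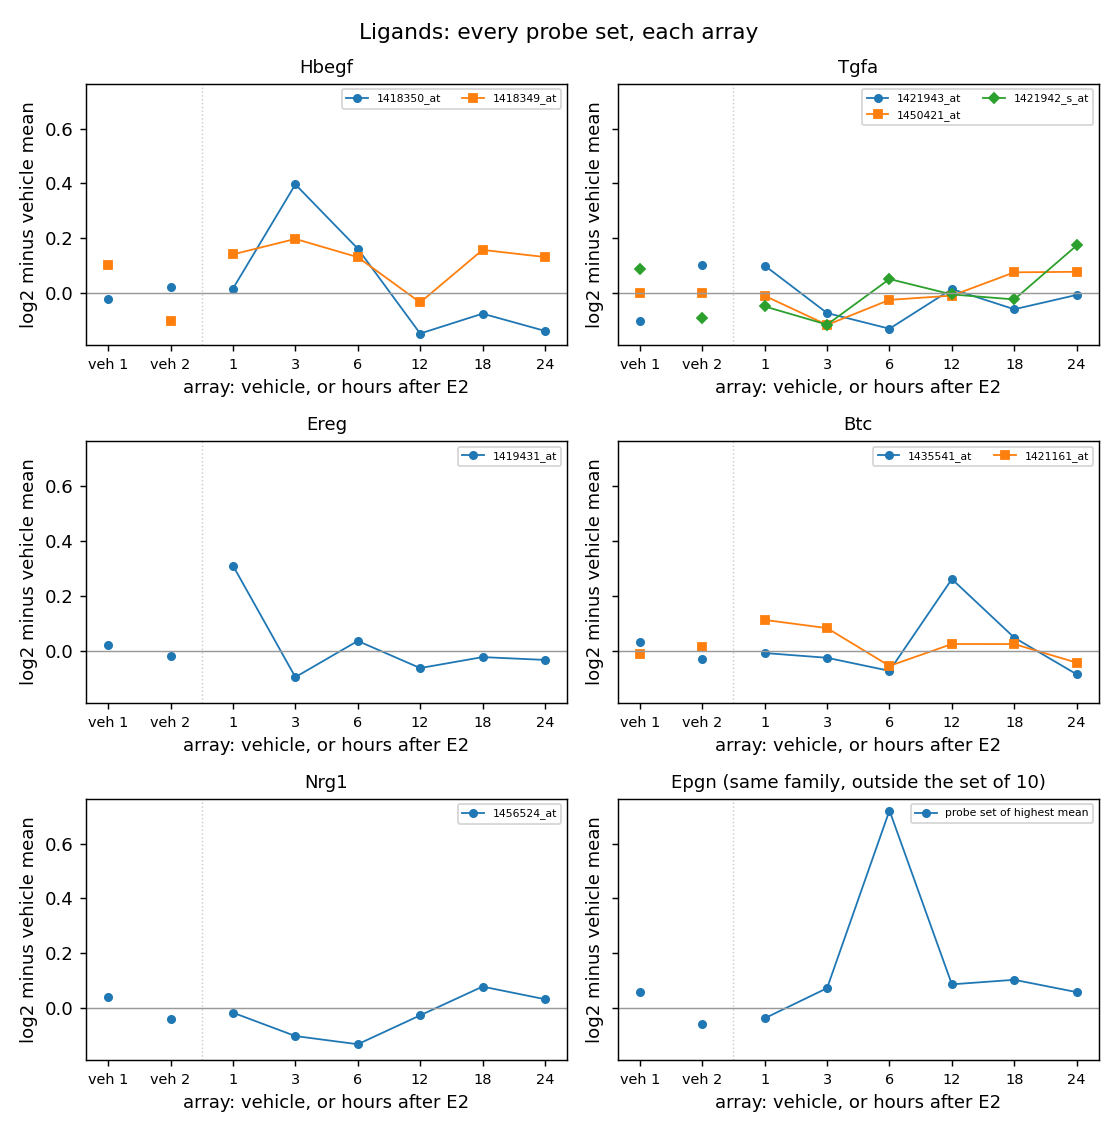
Log2 intensity minus the vehicle mean for every probe set of the 5 ligands, and for the representative probe set of Epgn, a further EGF family ligand; each point is 1 array, with vehicle at the left and hours after E2 evenly spaced. Hbegf 1418350_at stands at 0.40 at 3 h, Ereg at 0.31 at 1 h, Btc 1435541_at at 0.26 at 12 h and Epgn at 0.72 at 6 h.

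For a test, the 3 arrays of 1 to 6 h formed an early window and the 3 arrays of 12 to 24 h a late window. Each was set beside the vehicle pair, and different times stood in for replicates. Any course inside a window adds to its error. Both comparisons with vehicle use the same vehicle arrays. On the log2 scale, the early mean of Errfi1 exceeded vehicle by 0.90 ± 0.260 (SE) and that of Egfr by 0.26 ± 0.108, with 3 of 3 and 2 of 3 arrays above both vehicle arrays. Neither passed limma's test, with adjusted p = 0.684 and 0.879 (unadjusted p = 0.00663 and 0.0351), nor did Erbb2, Erbb3 or Tgfa, at -0.03, -0.09 and -0.03 with adjusted p = 0.993 each. The background was 0% of 10916 genes called, with 587 genes (5.38%) at an unadjusted p below 0.05. By the mean of its probe sets the early difference of Egfr was 0.11. The 6 h array was the lowest early array of Errfi1, at 0.26 above the vehicle mean, so leaving it out necessarily raised the early mean. That mean then lay 1.22 above vehicle. The adjusted p of Errfi1 in limma was then 0.0214, and 8 genes were called. Without the 1 h array 49 genes were called and without the 3 h array 3, no member among them. Over the other alternatives its adjusted p lay above 0.05, and the value ranged from 0.61 to 1.41 over all 18. Errfi1 was 1 of the 13.7% of genes whose early arrays all lay above both vehicle arrays.

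In the late window the members lay close to vehicle. Errfi1 lay at 0.11, Egfr at 0.03, Erbb2 at 0.14, Erbb3 at 0.17 and Tgfa at -0.02 on the log2 scale, with adjusted p in limma from 0.669 to 0.965. The share called was again 0%, with 830 genes (7.6%) at an unadjusted p below 0.05, none of the 5 members among them. On the representative probe sets the late arrays of Errfi1 and Erbb3 all lay above both vehicle arrays, as did those of 11.1% of genes. On the other probe set of either gene the late arrays overlapped the vehicle arrays.

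The late window was also set against the early window directly. Errfi1 lay 0.78 ± 0.233 (SE) lower in the late window, at -0.78 on the log2 scale (limma adjusted p = 0.147), and its late arrays all lay below its early arrays on both probe sets, as in 15% of genes. Egfr lay at -0.24 ± 0.0965 (adjusted p = 0.233), but at -0.014 (adjusted p = 0.915) by the mean of its probe sets. Erbb2 lay at 0.17 ± 0.0761 (adjusted p = 0.271), Erbb3 at 0.26 ± 0.139 (adjusted p = 0.335) and Tgfa at 0.02 (adjusted p = 0.914). No member passed, where 60 genes (0.55%) did, 27 higher (0.247%) and 33 lower (0.302%), a split that became 20 and 12 of 32 with quantile normalization. At an unadjusted p below 0.05 stood Errfi1, Egfr and 19.1% of all genes. Errfi1 passed without the 6 h array (-1.10, adjusted p = 0.00868), its lowest early array. It also passed with a covariate for the mean of the muscle markers (-0.92, adjusted p = 0.0368), a setting in which 1075 genes were called. Without the 1 h array Egfr (-0.36, adjusted p = 0.0308) and Erbb3 (0.45, adjusted p = 0.0157) passed among 232 genes. On that array Egfr was lowest and Erbb3 highest among the early arrays, so leaving it out necessarily widened both differences. Without the 18 h or the 24 h array no gene was called, whereas leaving out 3 h gave 8 calls, leaving out 12 h gave 13 and leaving out either vehicle array gave 37. Of the members below the level filter, fitted without it, Hbegf had the smallest adjusted p, 0.171, at -0.31.

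By its course over the 8 arrays, Errfi1 was most like Dusp4 (Pearson r = 0.947), Gadd45g (0.946), Socs3 (0.931), Smim38 (0.916) and Ccn1 (0.914), out of 109 tested genes that also spanned at least 2-fold. These correlations describe 8 arrays that the genes share, and the high values at 1 and 3 h weigh most in them. Dusp4, a phosphatase that acts on ERK, lay 0.78, 0.55 and 0.17 above the vehicle mean at 1, 3 and 6 h on the log2 scale. Gadd45g, a growth arrest gene, lay at 1.63, 1.19 and 0.76, and Socs3, an inhibitor of cytokine receptors, at 1.09, 0.48 and 0.26. Ccn1, a secreted matrix protein, stood at 1.32 at 1 h and 1.36 at 3 h, where Errfi1 had already come down from 1.48 to 0.96.

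**Figure D4:**
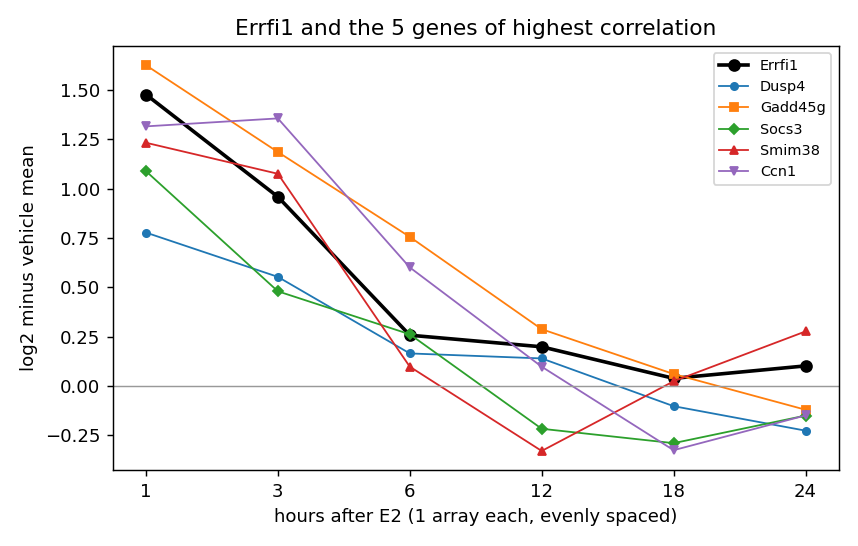
Log2 intensity minus the vehicle mean at each time after E2, evenly spaced, for Errfi1 (black) and the 5 genes whose course correlated most with it; each point is 1 array and there is no replicate at a time. Errfi1, Gadd45g, Socs3, Dusp4 and Smim38 are highest at 1 h, and Ccn1 at 3 h.

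The other genes of the pathway showed smaller differences than Errfi1. Of the 6 further ligands listed, 5 had a probe set and 3 (Epgn, Nrg2 and Nrg4) were tested, with 0 called in any window comparison. Epgn, epigen, a ligand of Egfr, read 7.71 and 7.60 on the vehicle arrays and 7.62, 7.73, 8.38, 7.74, 7.76 and 7.71 at the 6 times. Its 6 h array alone stood apart, at 1.65-fold the vehicle mean, past the 1.5-fold line that 0.586% of genes passed upward at that time. On that array muscle markers averaged 1.24, and the part of muscle in the Epgn value was not tested. Nrg4 lay within 0.16 of the vehicle mean throughout.

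Of 8 sheddases and their regulators, which release the ligands from the cell surface, 8 were tested and 0 called in a window. Their median lay at 0.02 early and -0.08 late against vehicle on the log2 scale, where all genes had 0.01 and -0.01. Rhbdf2, which brings the main sheddase to the surface, lay at 0.40 and Timp3, which inhibits it, at 0.32 above the vehicle mean at 3 h. At that time 3 of the 8 genes lay above both vehicle arrays and 5 below, with a median of -0.07. Of all 10916 genes, 3822 lay above both and 3117 below. Of 33 adaptors and effectors 27 were tested and 0 called, with medians of 0.02 and -0.03. The largest early differences among them were those of Stat5a, at 0.44 with 0.74 at 3 h, and of the Erbb2 adaptor Grb7, at -0.27 (limma adjusted p = 0.689 and 0.638). Of 19 genes of receptor degradation and other inhibitors 19 were tested and 0 called in a window, with medians of 0.01 and -0.03. Between windows the phosphatase gene Ptpn1 lay at -0.23 and the ubiquitin ligase gene Cblc at 0.20 (limma adjusted p = 0.116 and 0.161).

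Of 11 feedback genes of the ERK route, downstream of the receptors, all were tested. In the early window 10 of the 11 lay above vehicle, with a median of 0.10, as did 6291 of all 10916 genes. In the late window 2 lay above it, with a median of -0.09, as did 4919 of all genes. None was called against vehicle, and 2 were called lower in the late than in the early window, Phlda1 at -0.50 and Ier3 at -0.45 (limma adjusted p = 0.0414 each), where 0.302% of all genes were called lower. Among immediate early genes, transcribed within minutes of a stimulus, 22 of 25 were tested and 6 called lower late than early: Fos, Fosl2, Jun, Junb, Ccn1 and Gadd45g. Lymphocyte markers also differed on late arrays. B cell markers averaged -0.47 and -0.45 and T cell markers -0.34 and -0.28 against the vehicle mean at 18 and 24 h. At both times 7 of 7 tested markers of either list lay below both vehicle arrays, as did 4820 and 5062 of all 10916 genes. At 12 h these lists averaged 0.14 and -0.01. Summed B cell marker intensities ran from 8483 to 10518 in vehicle, 8479 to 10315 early and 6774 to 10459 late, and those of T cells from 3738 to 4317, 3677 to 4222 and 3211 to 3971. The part of lymphocytes in the late values was not tested. The median of the immediate early genes stood at 0.23, 0.21 and 0.12 at 1, 3 and 6 h, and 20 of the 22 lay above both vehicle arrays at 1 h, where 39.7% of all genes did. Glucocorticoid-responsive genes, all 16 tested, stood at medians of 0.16, 0.15 and 0.07 at these times with 0 called. Pdk4, a kinase that restrains glucose use, lay at 0.67 early and the secreted protein gene Lcn2 at 0.43 (limma adjusted p = 0.565 and 0.851). Of 14 estrogen response genes 10 were tested and 0 called in a window. Past 2-fold at some time were 5: Pgr, Cited1, Foxa1, Krt4 and Cxcl15, where 0.385% of all genes passed that line at some time. At 6 h 3 were higher and 1 lower. This and the other lists were chosen with earlier results of these data known, so their counts beside the shares are description. The part of the estrogen response genes, or of the injection, in the Errfi1 values was not tested.

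**Figure D5:**
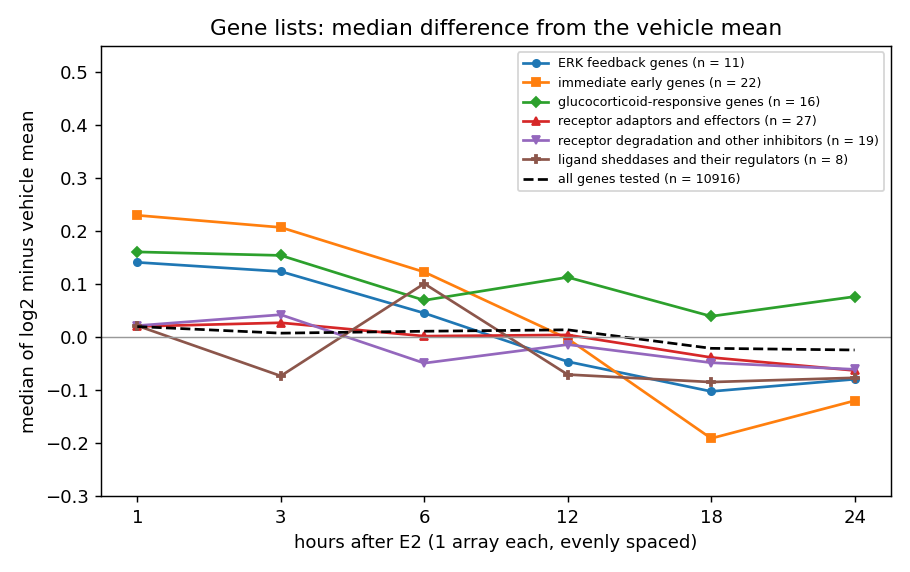
Median over the tested genes of 6 pathway and response lists of the log2 intensity minus the vehicle mean, at each time after E2 (evenly spaced, 1 array each); the dashed line is the median of all 10916 genes tested. Immediate early, glucocorticoid-responsive and ERK feedback genes start at 0.23, 0.16 and 0.14 at 1 h, and the lists of adaptors, of degradation and other inhibitors and of sheddases stay between -0.08 and 0.10.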

How the data were processed

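Biotinylated cRNA from total RNA was read on 1-colour Affymetrix arrays, per the labels' protocols. The deposited values are intensity values on a linear scale, and GCOS 1.0 and RMA are listed, with no role, per the submitters' processing notes. Array medians lay between 173.9 and 180.49, so the values were only converted to log2. The members and the gene lists were chosen with earlier results of these data known.

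The probe annotation gave 34945 probe sets 1 symbol, 932 several and 9160 none, and 64 controls were left out. Genes at or above the 40th percentile were tested with limma 3.58.1 in R 4.3.3 (mean-variance trend, 5 residual degrees of freedom, Benjamini-Hochberg over 10916 genes, two-sided, called below 0.05), in code tested on simulated data. Nothing says that arrays came from separate animals, so array-to-array spread could be technical. In the window fits, the spread behind the p-values also holds the change between the times of a window. A single time was called at 2-fold from both vehicle arrays. Named were all members, of each list the genes called in a window or 2-fold at some time or else the 2 with the largest window difference, the 5 genes most correlated with any member spanning 2-fold, 5 tissue markers and Pgr; Dusp4, Socs3, Rhbdf2 and Timp3 values at single times are given as description. The number of arrays limits the precision. Promoter sequences are from RefSeq (GRCm38.p6). Alternatives changed the filter, normalization, probe set, variance model, covariate, fold or arrays used.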

Additional observations from a re-analysis of the deposited data

How the results depend on the processing

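The members' directions and calls over the alternatives are given as limits. Errfi1 kept its direction in the early window and between windows under all 18 alternatives. Many of these could not change it: the filter, the variance model and arrays outside a comparison leave the difference itself as it was. Few arrays, 1 per time, and no vehicle array before 24 h set the limit for every member, and Erbb4, Ereg and Nrg1 lay below the lower quartile of the arrays. No paired analysis was possible because each E2 group has a single array, and the titles number the vehicle arrays only.

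The count of genes called in the early window, 0, became 1 without the level filter, 1 with the mean of probe sets, 1 with every probe set its own row, 12 with the muscle covariate and 1 with the luminal covariate, and ranged from 0 to 49 with an array left out (49 without 1 h, 3 without 3 h and 8 without 6 h). In the late window, 0 became 2 with the luminal covariate. Between windows, 60 became 32 with quantile normalization, 23 with the mean of probe sets, 1075 with the muscle covariate and 1 with the luminal covariate, and ranged from 0 to 232 with an array left out (0 without 18 h or 24 h, 8 without 3 h, 13 without 12 h, 37 without either vehicle array and 232 without 1 h). The cause of these shifts was not tested.

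At single times, the counts of 6, 21, 23, 6, 2 and 1 genes at the 6 times in order became 35, 87, 81, 23, 25 and 24 at 1.5-fold. With 7 group means they became 65 at 3 h, 40 at 6 h, and 0 at both 18 h and 24 h. At 24 h the count was 3 with quantile normalization, 5 without the level filter and 0 with the mean of probe sets. Against a single vehicle array they ranged from 7 to 19 (1 h), 29 to 30 (3 h), 27 to 44 (6 h), 2 to 20 (18 h) and 2 to 21 (24 h), and stood at 10 at 12 h either way.

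Signs that turned were all of differences that missed the test before and after. Tgfa turned to -0.00025 between windows with centred arrays, to 0.026 late with the mean of probe sets, to 0.11 early, 0.087 late and -0.019 between windows with the muscle covariate, and to 0.017 early and -0.33 between windows with the luminal covariate. The luminal covariate also turned Erbb3 to 0.040 early, -0.58 late and -0.62 between windows, Errfi1 to -1.27 late and Egfr to 0.17 between windows. That covariate largely coincides with the late window, so no conclusion is drawn from its late and between-window values. With an array left out, Egfr ranged from -0.0208 to 0.0830 late, Tgfa from -0.138 to 0.0693 early, from -0.121 to 0.0864 late and from -0.0308 to 0.0844 between windows, Erbb2 from -0.0832 to 0.0186 early and Erbb3 from -0.284 to 0.0197 early.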
